A study of Homo sapiens with 12 samples.

Results

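The genes described here encode the aminoacyl-tRNA synthetases of Caco-2 cells, a line from a human colon adenocarcinoma whose cells differentiate into a polarised epithelium in culture. Members were the table rows whose symbol is a synthetase symbol, and 36 of 26125 rows qualified. Of these, 20 encode cytosolic enzymes and 16, with symbols ending in 2, encode mitochondrial enzymes. The choice went by symbol and applied no cut on a measured value, but it was made with earlier results of these data known. Cells of every group had grown for 21 days on transwell inserts and were placed in the same HEPES-buffered salt solution. The control group received nothing further. The CW14 group received Bacillus subtilis CW14, a bacterial strain, in the apical chamber, and the OTA group received ochratoxin A, a fungal toxin, at 15 µmol/L. The combined group received both agents. Each group had 3 sequenced samples, and the labels do not state the exposure time. The labels do not say whether the 3 were separate cultures, so every p-value refers to the spread among them, and part or all of that spread may be technical.

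Each synthetase joins an amino acid to its tRNA, and the charged tRNA then delivers that amino acid to the ribosome. Cytosolic enzymes serve translation of nuclear transcripts, and several of them sit in a multisynthetase complex held together by the scaffold proteins AIMP1, AIMP2 and EEF1E1. Mitochondrial enzymes are also encoded in the nucleus and serve translation of the mitochondrial genome. GARS and KARS each supply both compartments from a single gene, and EPRS is a fusion that charges both glutamate and proline tRNAs. Ochratoxin A carries a phenylalanine moiety and is known to compete with phenylalanine at phenylalanyl-tRNA synthetase, whose cytosolic form is built from FARSA and FARSB.

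When amino acids run short, the transcription factor ATF4 binds with C/EBP proteins to composite sites of the form TGATGNAA, and several cytosolic synthetase genes are known for such sites. These letters were searched on both strands in RefSeq promoter windows of build GRCh38.p14, from 250 bases before to 50 bases after each transcript start. A window was found for 16 of the 20 cytosolic and 14 of the 16 mitochondrial genes; DARS, LARS, VARS, YARS, AARS2 and VARS2 had no match by symbol. The letters stood in 7 of 16 cytosolic promoters, or 43.8%, and in 1 of 14 mitochondrial promoters, or 7.14%. Among all RefSeq genes the share was 4.46%. The single form TTGCATCA, read in either direction, stood in 37.5% of cytosolic, 0 of 14 mitochondrial and 1.08% of all genes. The 8 stretches are shown because they mark which genes of each compartment hold the letters, and each has 30 bases on the strand of the gene, 5′ to 3′, with the match in capitals.
AARS, chr16:70289675-70289704, minus strand: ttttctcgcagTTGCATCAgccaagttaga
CARS, chr11:3057407-3057436, minus strand: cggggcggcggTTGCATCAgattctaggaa
GARS, chr7:30594834-30594863, plus strand: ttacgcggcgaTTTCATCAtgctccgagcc
IARS, chr9:92293692-92293721, minus strand: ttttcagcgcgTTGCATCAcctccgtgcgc
MARS, chr12:57488053-57488082, plus strand: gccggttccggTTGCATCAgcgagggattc
NARS, chr18:57621804-57621833, minus strand: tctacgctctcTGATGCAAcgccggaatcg
TARS, chr5:33440956-33440985, plus strand: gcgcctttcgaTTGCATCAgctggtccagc
YARS2, chr12:32756076-32756105, minus strand: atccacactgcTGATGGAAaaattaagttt
The matches of CARS, GARS, IARS, MARS, NARS and TARS lay within 33 bases of the start, and those of AARS and YARS2 lay at -187 to -180 and -197 to -190 from it. A match is a run of letters and not a measured binding site.

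HARS and HARS2, the cytosolic and mitochondrial histidyl enzymes, are neighbours that run in opposite directions from starts a short distance apart. The 84 bases between the RefSeq starts, of which 59.5% are G or C, are shown because HARS passed the test in the combined group against OTA and its neighbour HARS2 did not. They lie at chr5:140691371-140691454 of GRCh38.p14 and are written on the plus strand.
HARS-HARS2: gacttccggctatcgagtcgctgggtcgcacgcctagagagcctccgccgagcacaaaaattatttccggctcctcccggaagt
In the deposited table both genes carry the locus chr5:140053487-140078903 of hg19, and as close paralogs they may share fragments that the authors' counting had to divide. EPRS and IARS2 likewise carry a common locus, chr1:220046617-220321383 of hg19.

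Values were deposited as FPKM, a unit of sequenced fragments per transcript length and per mapped fragments of the library. Any further scaling across libraries is not given. Combined replicate 3 stood apart from the other libraries before any gene was compared. Its residual SD around its group mean was 0.588 on the log2(FPKM + 1) scale over the 12928 genes tested, against 0.305 to 0.424 in the other 11 libraries, and its relative depth was the lowest at 0.470 on a scale where control replicate 1 is 1. Residuals followed transcript GC content in several libraries: over 12148 genes the Spearman correlation was 0.462 in combined replicate 3, -0.321 and -0.431 in combined replicates 1 and 2, and between -0.259 and 0.235 in the other 9. Residuals of a group sum to 0 for each gene, so the values of 3 libraries in a group are not separate observations. Absolute depth is unknown because the values are not counts. Of 13 epithelial markers 12 passed the filter of a mean of at least 1 FPKM, but SI (sucrase-isomaltase), a marker of mature enterocytes, did not exceed 0.148 FPKM in any library. Summed epithelial markers were 10144 to 10870 FPKM in the controls, 8688 to 9295 with CW14, 10572 to 11621 with OTA and 10838 to 27580 in the combined group, where APOA1 alone reached 19185 FPKM in replicate 3. Of 11 markers of leukocytes, endothelium and fibroblasts, 3 were listed at 0 in all 12 libraries, among them the leukocyte marker PTPRC and the fibroblast marker DCN. Their sum was 112 to 149 FPKM in the controls, 92.0 to 120 with CW14, 161 to 199 with OTA and 96.5 to 126 in the combined group, most of it from CD68 and LYZ. In bulk RNA, fewer cells of a type and less RNA per cell cannot be told apart.

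Cytosolic synthetase transcripts stood at higher levels than mitochondrial ones. In the controls the median over genes of the mean FPKM was 17.1 for the 20 cytosolic genes and 5.89 for the 15 mitochondrial genes that passed the filter. Of the cytosolic genes 14 were over 10 FPKM and 2 were under 5, against 5 and 7 of the mitochondrial genes. The highest cytosolic means over the 12 libraries were those of NARS (asparagine) at 50.3, DARS (aspartate) at 43.7 and TARS (threonine) at 36.3 FPKM. The mitochondrial enzymes were led by IARS2 (isoleucine) at 35.8, NARS2 at 17.3 and YARS2 (tyrosine) at 15.4 FPKM. The 2 compartments overlapped, since IARS2 lay above 17 of the 20 cytosolic genes. At the low end stood QARS (glutamine) at 1.58 FPKM among cytosolic genes and VARS2 (valine) at 1.16 FPKM among the mitochondrial genes tested. RARS2, the mitochondrial arginyl enzyme, averaged 0.639 FPKM and was not tested: it measured 0.711, 0.150 and 0.651 FPKM in the controls, 0.530, 0.459 and 0.834 with CW14, 0.665, 0.900 and 1.33 with OTA, and 0.554 and 0.881 in the combined group with replicate 3 listed at 0. Those RARS2 values overlapped between all groups.

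**Figure D1:**
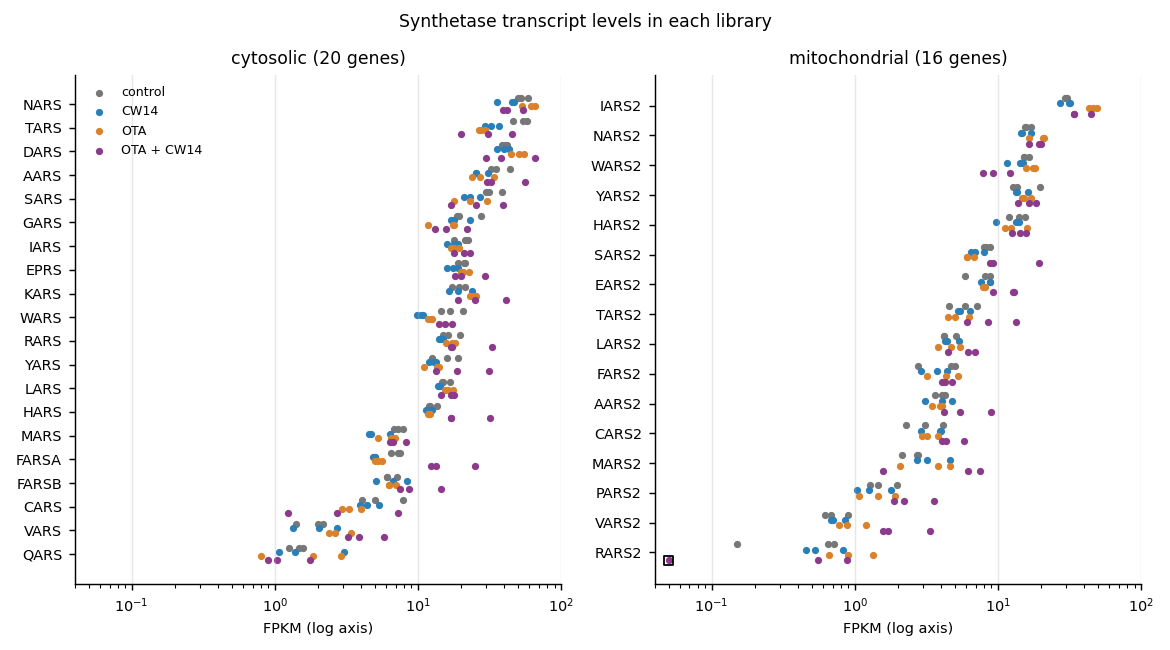
FPKM of each synthetase (log axis) in the 12 libraries, with 20 cytosolic genes in one panel and 16 mitochondrial genes in the other, ordered by control mean and coloured by group. The cytosolic genes run from QARS at 1.58 to NARS at 50.3 FPKM on average, the mitochondrial genes from RARS2 at 0.639 to IARS2 at 35.8 FPKM; the boxed point at the left edge is RARS2 listed at 0 in combined replicate 3.

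OTA moved few synthetases, and in opposite directions. The cytosolic threonyl enzyme TARS and tryptophanyl enzyme WARS fell, and the mitochondrial isoleucyl enzyme IARS2 rose. They were 3 of 35 tested genes (2 of 20 cytosolic, 1 of 15 mitochondrial) that passed an adjusted p of 0.05 in limma, with adjustment over all 12928 genes. Over all genes 17.7% passed, 4.82% higher and 12.9% lower. The share of synthetases was below that background.

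TARS measured 57.5, 46.0 and 53.8 FPKM in the controls and 29.5, 27.8 and 26.8 FPKM with OTA. Every OTA library lay below every control, and the group mean went from 52.4 ± 5.83 to 28.0 ± 1.38 FPKM (SD, n = 3). The log2(FPKM + 1) value fell by 0.88 (SE 0.23, limma adjusted p = 0.0196). The call was lost when any 1 of control replicates 1 and 3 or OTA replicates 1, 2 and 3 was left out, with adjusted p from 0.0503 to 0.0723.

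WARS, which interferon is also known to induce, measured 14.4, 16.7 and 20.7 FPKM in the controls and 12.5, 12.2 and 11.8 FPKM with OTA. The groups did not overlap, the controls were spread more widely than the OTA libraries, and the log2 value fell by 0.46 (SE 0.15, limma adjusted p = 0.0492). This call was lost on leaving out any 1 of 9 libraries (all but control replicate 1 and combined replicates 2 and 3), with adjusted p from 0.0610 to 0.208, and also with libraries centred on a common median (adjusted p = 0.108).

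IARS2 measured 30.2, 29.7 and 29.5 FPKM in the controls and 43.5, 48.8 and 46.1 FPKM with OTA. All OTA libraries lay above all controls, and the log2 difference was 0.61 (SE 0.13, limma adjusted p = 0.00796). That call held under each of the 20 alternative settings run. NARS2, another mitochondrial enzyme, measured 16.9, 15.7 and 15.4 FPKM in the controls and 16.5, 20.5 and 20.9 FPKM with OTA, and these values overlapped.

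The 32 other genes did not pass. The median log2 difference was -0.12 over cytosolic genes, 0.06 over mitochondrial genes and 0.03 over all genes tested. The 8 cytosolic genes of the multisynthetase complex (DARS, EPRS, IARS, KARS, LARS, MARS, QARS, RARS) had a median of 0.07 with none called, and the 12 outside it had a median of -0.37 with 2 called and 9 negative. EPRS, the fused enzyme, measured 20.4 ± 1.29 FPKM in the controls and 21.2 ± 1.46 with OTA (SD, n = 3), with a 95% interval of the log2 difference from -0.31 to 0.42. Of the pair that serves both compartments, GARS (glycine) differed by -0.45 and KARS (lysine) by 0.31, and neither passed. Without overlap between groups were 10 of 35 synthetases, 4 above and 6 below the controls, against 24.4% and 25.7% of all genes. The summed markers of other cell types were also higher with OTA, as given above. CD68 went from a mean of 80.8 to 116 FPKM and LYZ from 44.9 to 62.7 FPKM. The leukocyte marker CD3E went the other way, from 0.778 to 0.570 FPKM. The part of these markers in the differences was not tested. PTPRC was at 0 in every library. Centring libraries on a common median moved the median of all genes from 0.03 to 0.13, the cytosolic median from -0.12 to -0.02 and the mitochondrial median from 0.06 to 0.16. It also moved the share of higher among all called genes from 27.2% to 46.2%, in the combined group against OTA from 48.6% to 36.7%, and in the interaction from 55.5% to 39.5%.

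CW14 alone moved no synthetase past the threshold. In limma 0 of 35 passed, against 0.364% of all genes, and no other tool was run. At an unadjusted p under 0.05 there were 3, all lower, which were TARS, WARS and MARS (methionine), while 6.64% of all genes reached that level. TARS measured 36.5, 32.4 and 29.4 FPKM with CW14, all below the controls, a log2 difference of -0.66 (SE 0.23, limma adjusted p = 0.562). WARS measured 10.4, 10.8 and 9.83 FPKM, again below all controls, a log2 difference of -0.67 (SE 0.15, limma adjusted p = 0.120). MARS measured 6.75, 7.27 and 7.87 FPKM in the controls and 4.53, 4.68 and 6.41 FPKM with CW14.

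The cytosolic genes were nonetheless mostly on the negative side with CW14. The log2 difference was negative for 16 of 20 cytosolic genes, with a median of -0.21, and for 9 of 15 mitochondrial genes, with a median of -0.03. Over all genes the median was -0.02. The cytosolic minus mitochondrial median was -0.27 without control replicate 1 and -0.08 without control replicate 3, the ends of its range on leaving out 1 library. The comparison of OTA with control uses the same controls. Every CW14 library lay below every control for 11 of 35 synthetases (9 cytosolic and 2 mitochondrial) and above for 0, while 10.9% of all genes lay below and 9.66% above in that way. Summed over the 20 cytosolic genes the level was 406 ± 25.9 FPKM in the controls and 329 ± 22.6 FPKM with CW14 (SD, n = 3). In replicates 1, 2 and 3 this sum was 390, 392 and 436 FPKM in the controls and 322, 354 and 311 FPKM with CW14. The mitochondrial sum was 133 ± 4.36 and 129 ± 2.38 FPKM. Epithelial markers summed lower with CW14 as well, mostly through APOA1, KRT8 and KRT18, while CDX2 was 56.7 ± 5.49 FPKM in the controls and 68.1 ± 3.00 with CW14 (SD, n = 3), and HNF4A, VIL1 and CDH1 also had higher means. Their part was not tested. When combined replicate 3, which is in neither group but adds to the common spread, was left out, WARS passed (limma adjusted p = 0.0315), 1 of 35 against 0.951% of all genes.

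The combined group differed from OTA alone at FARSA, HARS and SARS2, which were higher, and WARS2, which was lower. These 4 of 35 genes passed, 3 higher and 1 lower, against 16.0% of all genes, 7.79% higher and 8.22% lower, so the synthetases were again not called more often than the background. FARSA, the catalytic subunit of the cytosolic phenylalanyl enzyme, gave the largest difference among the synthetases in this comparison. It measured 5.28, 5.00 and 5.59 FPKM with OTA and 13.4, 12.4 and 25.1 FPKM in the combined group. All 3 combined libraries lay above all 9 others, whose highest was 7.49 FPKM, and replicate 3 was the highest by a wide margin. The log2 difference was 1.45 (SE 0.21, limma adjusted p = 0.00307). Leaving out combined replicate 3 gave 1.14 (SE 0.12, limma adjusted p = 7.8e-04). In a fit to only these 2 groups the adjusted p was 0.0621.

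FARSB, the other subunit of that enzyme, measured 6.24, 6.31 and 7.03 FPKM with OTA and 8.72, 7.44 and 14.4 FPKM in the combined group. Those groups did not overlap, but the log2 difference of 0.52 (95% interval 0.04 to 1.00) did not pass, with an adjusted p of 0.120 in limma. The ratio of FARSA to FARSB was 1.53, 1.67 and 1.75 in the combined libraries and between 0.602 and 1.24 in all others. Its group means were 1.11 ± 0.179 in the controls, 0.767 ± 0.191 with CW14, 0.811 ± 0.030 with OTA and 1.65 ± 0.108 in the combined group (SD, n = 3). FARS2, the mitochondrial phenylalanyl enzyme, stayed between 2.74 and 5.23 FPKM in all 12 libraries.

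HARS, the cytosolic histidyl enzyme, measured 12.0, 11.8 and 11.8 FPKM with OTA and 17.0, 16.9 and 32.1 FPKM in the combined group, without overlap, and its log2 difference was 0.77 (SE 0.20, limma adjusted p = 0.0265). HARS2 measured 11.2, 16.1 and 12.3 FPKM with OTA and 12.4, 14.2 and 15.7 FPKM in the combined group, which overlapped, and its difference of 0.10 had a 95% interval from -0.29 to 0.50. The difference between these neighbours was not tested. Without combined replicate 3 the HARS difference was 0.48 (limma adjusted p = 0.00885). The HARS call was lost on leaving out any 1 of the OTA libraries, with adjusted p from 0.0719 to 0.0816.

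SARS2, the mitochondrial seryl enzyme, measured 6.11, 6.81 and 6.12 FPKM with OTA and 9.25, 8.83 and 19.4 FPKM in the combined group. The groups did not overlap, and replicate 3 carried much of the distance. The log2 difference was 0.79 (SE 0.23, limma adjusted p = 0.0403), and 0.45 (adjusted p = 0.0266) without combined replicate 3. The SARS2 call was lost on leaving out any 1 of the 9 control, CW14 and OTA libraries, with adjusted p from 0.0528 to 0.112.

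WARS2, the mitochondrial tryptophanyl enzyme, went the other way. It measured 15.8, 18.1 and 17.6 FPKM with OTA and 9.28, 12.2 and 7.90 FPKM in the combined group, every value below OTA. The log2 difference was -0.77 (SE 0.16, limma adjusted p = 0.0115). It was -0.64 (adjusted p = 0.0113) without combined replicate 3, and the call was lost without OTA replicate 2 (adjusted p = 0.0514).

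**Figure D2:**
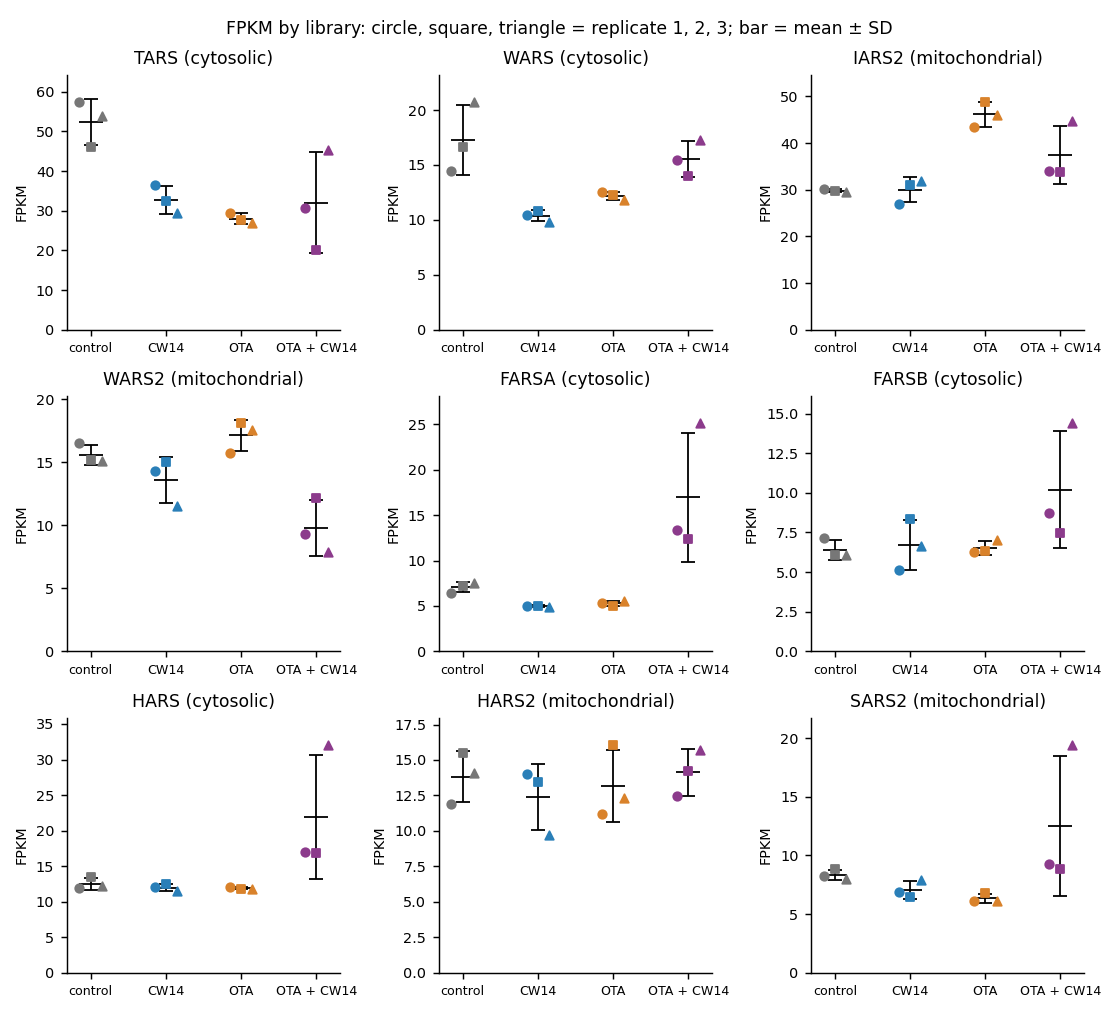
FPKM by library for TARS, WARS, IARS2, WARS2, FARSA, FARSB, HARS, HARS2 and SARS2. Marker shapes stand for replicates 1, 2 and 3, and bars for the mean and SD of each group. FARSB and HARS2 were called in no comparison, and the called genes VARS, VARS2 and EARS2 are not shown. FARSA lies at 12.4 FPKM or more in the combined libraries and at 7.49 or less elsewhere, TARS lies at 46.0 or more in the controls and at 45.4 or less elsewhere, and WARS2 lies at 12.2 or less in the combined group and at 15.8 or more with OTA.

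Against the untreated controls the combined group had 7 of 35 synthetases called, 5 higher and 2 lower, against 28.8% of all genes, 12.0% higher and 16.8% lower. This comparison shares its combined samples with the one against OTA and its controls with those of OTA and CW14 alone. The higher ones were FARSA (log2 difference 1.09), HARS (0.70), VARS (0.87), the mitochondrial valyl enzyme VARS2 (0.86) and the mitochondrial glutamyl enzyme EARS2 (0.56), which had limma adjusted p of 0.00328, 0.0234, 0.0163, 0.0147 and 0.0284. TARS (-0.76) and WARS2 (-0.64) were lower, with limma adjusted p of 0.0266 and 0.0121. The valyl pair was low throughout: VARS measured 1.41, 1.99 and 2.16 FPKM in the controls and 3.22, 3.84 and 5.79 in the combined group, and VARS2 measured 0.677, 0.891 and 0.619 FPKM and 1.58, 1.71 and 3.34 FPKM. Neither valyl gene overlapped between those groups. EARS2 measured 5.86, 8.14 and 8.74 FPKM in the controls and 12.7, 12.9 and 9.28 FPKM in the combined group, here with replicate 3 the lowest. TARS measured 30.8, 20.1 and 45.4 FPKM in the combined group, and replicate 3 lay just below the lowest control, 46.0 FPKM.

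Over the mitochondrial genes 14 of 15 log2 differences against control were positive, with a median of 0.44, while the cytosolic genes divided into 12 positive and 8 negative with a median of 0.06. Over all genes the median was 0.02. The mitochondrial sum was 161 ± 8.49 FPKM in the combined group against 133 ± 4.36 in the controls, and the cytosolic sum was 418 ± 124 against 406 ± 25.9 (SD, n = 3). The difference of -0.39 between the cytosolic and mitochondrial medians was -0.10 without combined replicate 2. Without combined replicate 3, 13 of 15 mitochondrial differences were positive with a median of 0.27, and the cytosolic median was -0.08 with 9 positive and 11 negative. Some of the calls against control were lost on leaving out a single library. HARS was lost without control replicate 1 or 3 (limma adjusted p 0.0753 and 0.0682), and VARS without control replicate 1 (0.0689). TARS was lost without control replicate 1 or 3 or combined replicate 1 or 2 (from 0.0545 to 0.0919). EARS2 was lost without control replicate 1 or 2 or combined replicate 1 or 2 (from 0.0511 to 0.120).

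Against CW14 alone the combined group also had 7 of 35 called, 6 higher and 1 lower, against 32.3% of all genes, 14.8% higher and 17.5% lower. FARSA led with a log2 difference of 1.53 (SE 0.21, limma adjusted p = 3.7e-04), from 5.00, 5.01 and 4.82 FPKM with CW14. HARS, VARS and VARS2 were also higher, by 0.76, 0.80 and 0.84, and the VARS call was lost without CW14 replicate 1 or 2 or combined replicate 3 (adjusted p 0.0512, 0.0865 and 0.0567). WARS was 0.54 higher (limma adjusted p = 0.0156), with 15.4, 14.0 and 17.3 FPKM in the combined group, all above CW14, and that call was lost without CW14 replicate 3 (adjusted p = 0.0505). SARS2 at 0.66 and WARS2 at -0.45 each stood at a limma adjusted p of 0.0497 and were lost on leaving out any 1 of 10 libraries, with adjusted p up to 0.134 and 0.148.

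**Figure D3:**
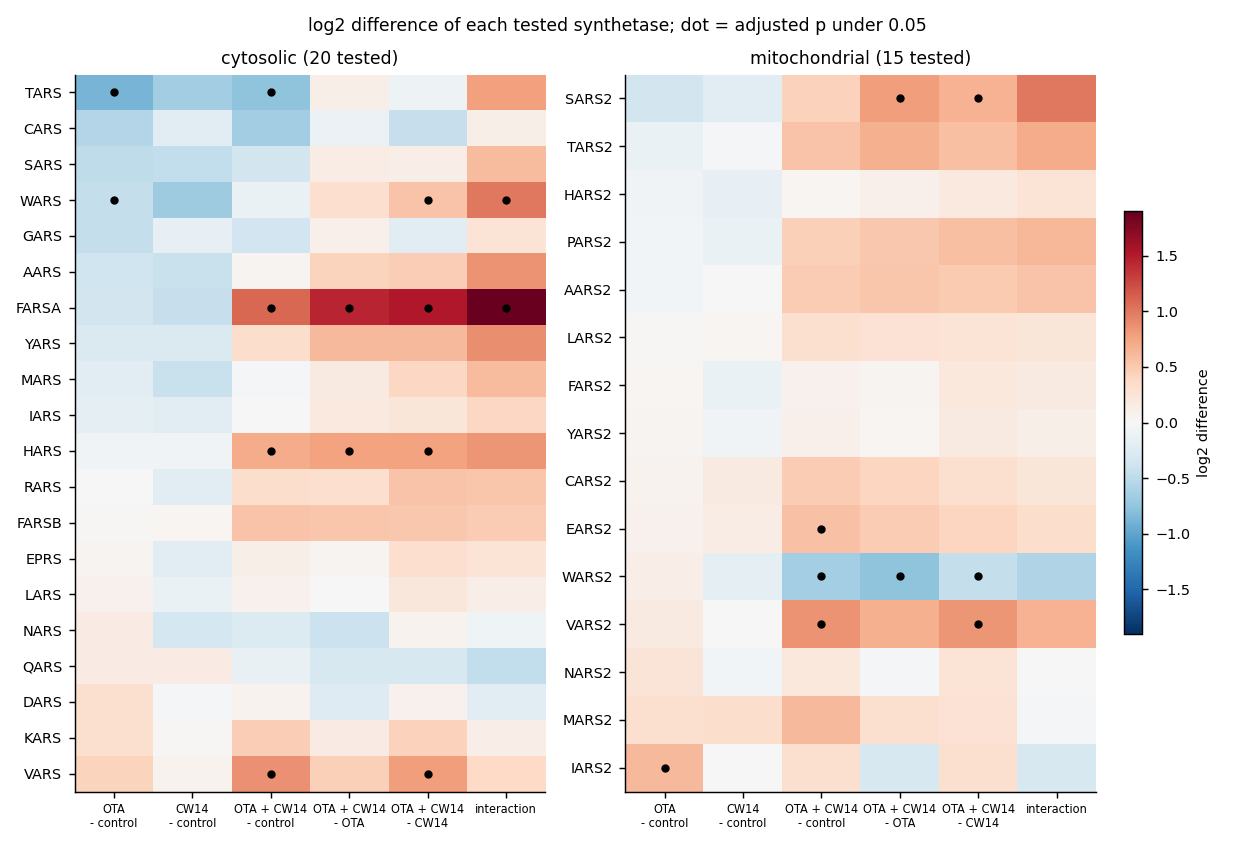
Log2(FPKM + 1) differences of the 20 cytosolic and 15 mitochondrial synthetases tested in each comparison and the interaction, as colours, with a dot at adjusted p under 0.05. FARSA carries a dot in the 3 comparisons of the combined group and in the interaction, and no gene carries one in CW14 against control.

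Whether OTA acted differently in the presence of CW14 was tested by an interaction term, the OTA difference with CW14 minus that without. It passed for 2 of 35 synthetases, both cytosolic and both positive, against 3.33% of all genes and 1.85% in that direction. For FARSA the OTA difference was -0.36 without CW14 and 1.53 with it, an interaction of 1.88 (SE 0.30, limma adjusted p = 0.0164). For WARS it was -0.46 without and 0.54 with CW14, an interaction of 1.00 (SE 0.21, limma adjusted p = 0.0304). Neither call was secure against leaving out a library: FARSA was lost without control replicate 2 or 3 or OTA replicate 2 (adjusted p 0.0551, 0.0615 and 0.0526), and WARS was lost without any 1 of 9 libraries (all but control replicate 1 and combined replicates 2 and 3), with adjusted p from 0.0556 to 0.0852. FARSB had an interaction of 0.49 with a 95% interval from -0.19 to 1.17.

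Combined replicate 3 stood above its partners for most cytosolic synthetases. It held the highest value of the 12 libraries for 16 of 35 genes. It exceeded the mean of combined replicates 1 and 2 for 18 of 20 cytosolic genes, by a median of 0.79 on the log2 scale, and for 7 of 15 mitochondrial genes, by a median of -0.14. Over all genes it was higher for 6626 of 12928, with a median of 0.02. CARS (cysteine) went from 2.71 and 1.23 to 7.22 FPKM, and YARS (tyrosine) from 18.8 and 13.4 to 31.2 FPKM. MARS2, the mitochondrial methionyl enzyme, went the other way, from 6.18 and 7.50 to 1.57 FPKM. Across the 35 synthetases this shift had a Spearman correlation of 0.10 with transcript GC content, given as a description over genes of 3 libraries. The part of GC content or depth in these values was not tested.

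Without that library the counts of called synthetases were 5 in OTA against control, 8 in the combined group against OTA, 10 against control, 8 against CW14 and 5 in the interaction, with 33.8%, 21.2%, 32.7%, 33.7% and 12.3% of all genes called. Against OTA the combined group then also had EARS2 and MARS2 higher (0.62 and 0.84, limma adjusted p = 0.0174 and 0.0405) and DARS and IARS2 lower (-0.55 and -0.43, limma adjusted p = 0.0128 and 0.0106). IARS2 measured 34.0 and 33.7 FPKM in combined replicates 1 and 2 and 44.7 in replicate 3, between the controls and the OTA libraries in the first pair and among the OTA libraries in the last. Against control CARS and SARS (serine) were then lower and MARS2 higher, and in OTA against control FARSA and SARS2 were lower. In the interaction HARS and SARS2 were then higher and IARS2 lower. Against CW14, SARS2, VARS and WARS2 were no longer called, and CARS, EARS2, MARS2 and PARS2 (proline) were.

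**Figure D4:**
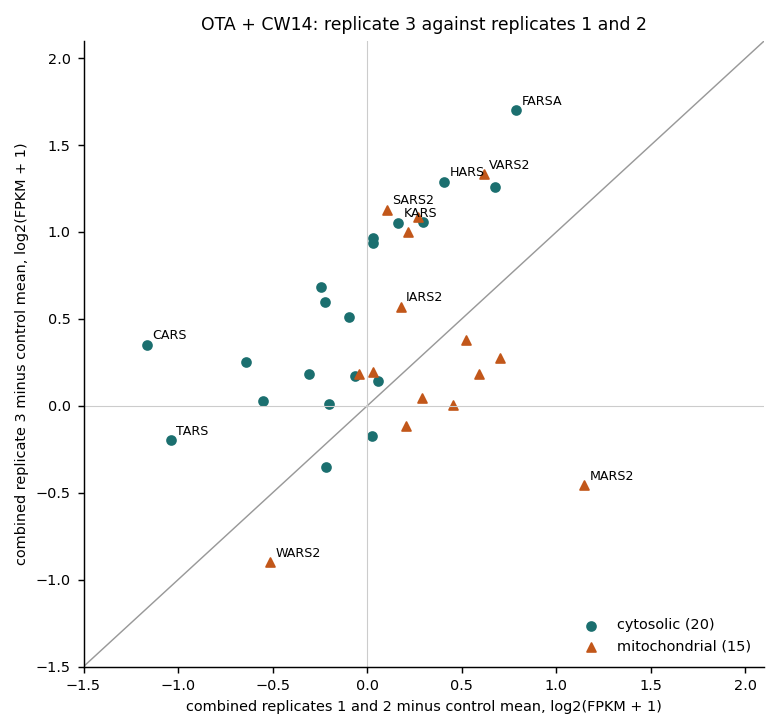
For each tested synthetase, the mean of combined replicates 1 and 2 minus the control mean (x axis) against combined replicate 3 minus the control mean (y axis), both in log2(FPKM + 1). Of the cytosolic genes 18 of 20 lie above the line of equality, and 7 of 15 mitochondrial genes do.

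The genes whose promoters hold TGATGNAA are set beside the rest as a description. Under OTA the 7 cytosolic genes with the letters had a median log2 difference of -0.38, with 6 negative and 1 called (TARS). The 9 matched cytosolic genes without them had a median of 0.01, with 4 negative and 1 called (WARS). NARS was the holder with a positive difference, 0.15. Under CW14 the medians were -0.33, with 7 of 7 negative, and -0.20, with 6 of 9 negative. In the combined group against OTA they were 0.12, with 2 of 7 negative, and 0.32, with 1 of 9 negative. Against control they were -0.26, with 5 of 7 negative, and 0.33, with 3 of 9. Against CW14 they were 0.07, with 3 of 7 negative, and 0.51, with 1 of 9. In the interaction they were 0.40, with 1 of 7 negative, and 0.52, with 1 of 9.

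The pathway around the synthetases was read from lists of related genes. Of 16 genes of the amino acid response, 9 fell with OTA and 0 rose, with a median of -0.67 against 0.03 over all genes, of which 12.9% fell. CHAC1, a glutathione-degrading enzyme induced by ATF4, went from 38.0 ± 4.06 to 2.19 ± 0.750 FPKM (SD, n = 3), and ATF3, a stress transcription factor, fell by 2.93 on the log2 scale (limma adjusted p = 1.3e-06). ATF4, singled out here after its values were seen, fell by 0.72 (limma adjusted p = 0.0119). Not called with OTA were EIF2AK4, ASNS, PSAT1, PHGDH, PSPH, SHMT2 and VLDLR. Of these, PHGDH, PSPH and SHMT2 had positive differences (0.20, 0.24 and 0.008), and the rest had negative ones. With CW14 alone 0 of the 16 passed, where 0.364% of all genes did. In the combined group against OTA 0 rose and 2 fell, where 8.22% of all genes fell; these were ATF3 by 0.72 and CEBPG by 0.46 (limma adjusted p = 0.0227 and 0.0404).

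Of 18 tested scaffold and tRNA-charging helper genes, 2 fell and 0 rose with OTA, a share near the 12.9% of all genes that fell. These were PTRH2, a peptidyl-tRNA hydrolase (-0.90, limma adjusted p = 0.0328), and GATC, a subunit of the enzyme that completes mitochondrial glutamine charging (-0.57, limma adjusted p = 0.00488). With CW14 0 of 18 passed, where 0.364% of all genes did. In the combined group against OTA 3 of 18 passed, near the 16.0% of all genes. ELAC2, which trims tRNA 3′ ends, and AIMP2, a scaffold of the multisynthetase complex, rose (0.77 and 0.68, limma adjusted p = 0.0267 and 0.0353). SEPSECS, which makes selenocysteine on its tRNA, fell by 1.03 (limma adjusted p = 0.00859). Of 10 genes that deliver charged tRNA and move the ribosome along, EEF1A1 and EEF2 rose with OTA (0.53 and 0.50, limma adjusted p = 0.0467 and 0.0195) and were lower in the combined group than with OTA (-0.72 and -0.52, limma adjusted p = 0.0164 and 0.0211). Both comparisons share the OTA samples. The other 8 did not pass in either. Of all genes 4.82% rose with OTA and 8.22% were lower in the combined group than with OTA. Without combined replicate 3, 4 of these 10 rose with OTA, where 1903 of all 12928 genes tested rose. In the combined group against OTA 4 of the 10, and 4 of the 16 amino acid response genes, were then lower. Of the 12928 genes, 1521 were lower in that comparison. With CW14 alone 2 of those 16 were then lower, where 68 of the 12928 genes were lower.

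**Figure D5:**
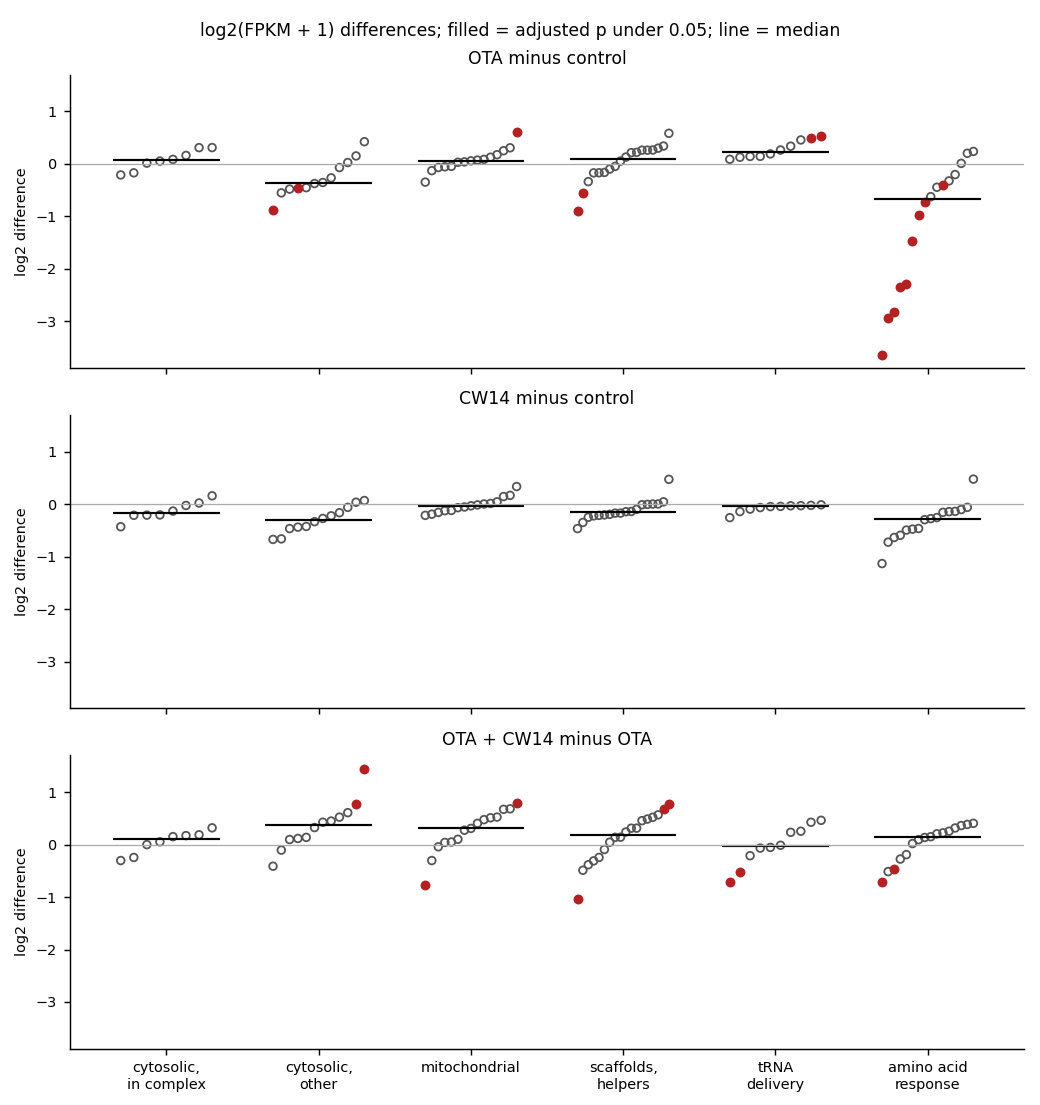
Differences in log2(FPKM + 1) (y axis) of each tested gene, 1 point a gene, in OTA against control, CW14 against control and the combined group against OTA, for the cytosolic synthetases in and outside the multisynthetase complex, the mitochondrial synthetases and the 3 related lists. Filled points passed an adjusted p of 0.05 and lines are medians, such as 0.07, -0.37, 0.06 and -0.67 with OTA for the genes in the complex, those outside it, the mitochondrial genes and the amino acid response.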

How the data were processed

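RNA from 12 Caco-2 samples in 4 groups of 3 was measured; groups and replicate numbers came from the sample titles. The authors deposited FPKM per gene and library, for which the submitters' processing notes name Cufflinks 2.2.1 with Cuffnorm and Cuffdiff, TopHat2 2.0.13, cutadapt 1.10 and build hg19. The annotation is not given in the sources used here, nor is any scaling across libraries. Loci are as deposited. The library kit is not stated to mark strand.

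Values were analysed as log2(FPKM + 1), which understates changes of low genes, for the 12928 genes averaging 1 FPKM or more over the libraries. limma 3.58.1 (R 4.3.3) fitted group means to all 12 libraries with an intensity trend and 8 residual degrees of freedom. Tests were two-sided, with Benjamini-Hochberg adjustment across the 12928 genes and calls at 0.05. The script was tested on simulated data.

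Relative depth came from the whole-fragment steps of values under 0.3 FPKM. Transcript GC came from an annotation covering 94.0% of tested genes. Named were all called synthetases, the highest and lowest by level, HARS, HARS2, GARS, KARS, EPRS, and up to 2 called genes of each related list. Others named (FARSB, FARS2, NARS2, MARS, YARS, the amino acid response genes not called with OTA and those changed by leaving out combined replicate 3) were chosen after their values were seen. Members and lists were chosen with earlier results of these data known. Alternatives covered the pseudocount, filter, scaling, groups fitted, replicate block and each library left out.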

Additional observations from a re-analysis of the deposited data

Results flagged for a closer look

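The interaction term, the OTA difference with CW14 minus that without, passed for 2 of 35 synthetases, against 3.33% of all genes. FARSA had an interaction of 1.88 and WARS of 1.00 on the log2(FPKM + 1) scale (limma adjusted p = 0.0164 and 0.0304). Leaving out any 1 of 3 libraries lost the FARSA call, with limma adjusted p up to 0.0615. The WARS call was lost without any 1 of 9 libraries, with limma adjusted p up to 0.0852. OTA libraries of FARSA lay below the controls without CW14, and the combined libraries lay above the CW14 libraries. WARS showed the same order. No group had enough samples for a formal check of single outlying values. Combined replicate 3 held the highest FARSA value, 25.1 FPKM against 13.4 and 12.4 in replicates 1 and 2, and both interaction calls held without it.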

How the results depend on the processing

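Of the 23 calls of a synthetase in a comparison, 3 held in every alternative: IARS2 in OTA against control, and FARSA in the combined group against control and against CW14. None of the 454 values recomputed changed direction, and 108 lost the call. Without the filter the counts of called synthetases were 1 in OTA against control (3 as reported), 2 in the combined group against OTA (4) and 4 against CW14 (7), with 7.13%, 4.88% and 12.3% of all genes called. Fitting only the compared groups gave 7 for OTA against control, while the combined group had 0 when set against OTA and 1 against each of control and CW14. The counts followed the whole table, of which 35.7%, 0.541%, 12.3% and 11.8% was called. Leaving out combined replicate 3 and centring, chosen after seeing the data, gave 6 for OTA, 1 for CW14, 8 for the combined group against OTA, 12 against CW14 and 6 in the interaction, with 37.9%, 0.967%, 21.6%, 34.6% and 13.2% of all genes called. The gap between the cytosolic and mitochondrial medians in the combined group against OTA, -0.15 as reported, was 0.10 at a mean of at least 5 FPKM and -0.41 under that added setting, where the interaction gap went from 0.20 to -0.058.

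Leaving out 1 library at a time, counts ranged from 1 to 5 for OTA, 0 to 1 for CW14, 1 to 9 for the combined group against OTA, 3 to 10 against control, 4 to 14 against CW14 and 0 to 7 in the interaction. Of all genes, the share called ranged from 10.0% to 33.8% for OTA and 0.0309% to 0.951% for CW14. For the combined group it ranged from 5.05% to 26.2% against OTA, 17.5% to 36.9% against control and 21.5% to 41.0% against CW14. In the interaction it ranged from 0.131% to 12.3%. The highest synthetase counts came without combined replicate 2 (9, 14 and 7) or 3 (5, 1 and 10). In the same order, the first 3 gaps ranged from -0.23 to -0.15, -0.27 to -0.08 and -0.41 to 0.23. The last 3 ranged from -0.39 to -0.10, -0.15 to 0.10 and -0.058 to 0.34. For single libraries, as deviations from the group means, the gap had a pooled within-group SD of 0.271. It was -0.05, -0.32 and 0.62 in the combined libraries and between -0.12 and 0.15 in all others. Without combined replicate 2 the gaps were 0.23 against OTA and -0.10 against control. The cause was not tested.

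Replicate numbers are shared between groups, but the samples were not shown to be paired: correlations of same-numbered deviations ran from -0.15 to 0.15 over 18 pairs, 1 above 0.1, and 0 of 12 libraries correlated best with their own number. With a replicate block the counts were 2 for OTA, 0 for CW14, 2 in the interaction, and for the combined group 5 (OTA), 7 (control) and 7 (CW14). Of all genes 15.7%, 0.333% and 2.21% were then called, and for the combined group 14.0%, 27.3% and 30.6%. The block lost the calls of WARS for OTA (adjusted p = 0.0710) and SARS2 against CW14 (0.0532), with gaps unchanged. Precision is limited by 3 samples a group and by an unknown absolute depth.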
